A study of Rattus norvegicus with 32 samples.

Results

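The genes of the rat major histocompatibility complex, called RT1, and the genes that load their products with peptide were followed through liver transplantation. Members were the Ensembl rows of the deposited table whose gene name starts with RT1- or is B2m, Tap1, Tap2, Tapbp, Cd74, Ciita, Nlrc5, Calr, Pdia3 or Erap1, and that were above 0 in at least 1 library. This gave 41 of 32883 Ensembl rows: 21 class I heavy chain rows, 10 class II chain rows, the light chain and loading genes of class I (7), the class II invariant chain Cd74 (1) and the transactivators Ciita and Nlrc5 (2). Of these, 29 reached 1 FPKM (fragments scaled to gene length and library size) in at least 8 libraries and were tested: 14 class I rows, 5 class II rows, all 7 light chain and loading genes, Cd74 and both transactivators.

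The study sequenced polyadenylated liver RNA of male rats of the inbred Lewis strain and concerned macrosteatosis, large fat droplets inside hepatocytes, in transplanted livers. The labels set 12 samples before transplantation, 12 after it and 8 in long-term survivors, of which 11, 11 and 8 libraries could be tied to a group. They name no drug, fat content, sampling time or batch, give no age, and do not say whether each library came from its own animal, so each p-value speaks of the spread among these libraries, part of which may be technical. The libraries held 15372950 to 19311664 reads assigned to genes, recovered from the steps in the FPKM values. Post-transplant replicate 9 stood apart in earlier results of these data, and calls of members that changed without it are given as such. Libraries are named by group and replicate, and pre-transplant u1 and u2 are 2 columns under a single header, with no number of their own. Long-term survivor replicates 3 and 7, and 4 and 8, had near-equal values (Cd74 at 222 and 224 FPKM, and at 89.4 and 88.7 FPKM), and the median of all 11924 genes tested was 0.17 lower on the log2 scale in long-term survivors than before transplantation.

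Class I molecules sit on nearly every nucleated cell and show peptides from inside the cell to CD8 T cells. Their heavy chain pairs with beta-2-microglobulin (B2m) and is loaded in the endoplasmic reticulum by the transporter Tap1/Tap2, the bridge tapasin (Tapbp), the chaperones calreticulin (Calr) and ERp57 (Pdia3) and the trimming peptidase Erap1. Class II molecules are pairs of an alpha and a beta chain that show endosomal peptides to CD4 T cells, ride with the invariant chain (Cd74) and are made mainly by dendritic cells, macrophages and B cells, in the liver also by Kupffer cells. Ciita drives the class II genes and Nlrc5 the class I genes, and interferon gamma induces both.

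All RT1 rows lay on chromosome 20, in the coordinates of the table, whose build it does not state (the submitters' processing notes list Rnor_6.0 and mm10). The class II chains RT1-Ba (4066132 to 4070721, minus strand), RT1-Bb (4039413 to 4049711, plus strand), RT1-Db1 (4087618 to 4097190, plus strand) and RT1-Da (4127644 to 4132616, minus strand) were neighbours of Tap1 (3979035 to 3989669) and Tap2 (3995544 to 4009587). Of the 21 class I rows, 9 overlapped another member, against 0 of 10 class II rows. Class I genes are near-identical copies, and neither the treatment of reads that fit several copies nor the use of strand is given in the sources used here, so the value of a single class I row is uncertain and class I is also given as a sum. The rat reference comes from the Brown Norway strain, whose RT1 haplotype differs from that of Lewis, and the part of this in the values was not tested.

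RefSeq windows (assembly GRCr8, from 250 bases before the gene start to 50 after it) matched 33 of the 41 members by symbol. The enhanceosome of class II genes is built on an X1 box bound by RFX, an X2 box bound by CREB and a Y box bound by NF-Y, and interferon regulatory factors bind the interferon response element. Both strands were searched. The X1 box, which starts with AGNAAC and closes with TG after a gap of 3 bases, lay in 4 of 9 class II windows (RT1-Da, RT1-Db1, RT1-Db2 and RT1-DOb), in that of Cd74 and in 1 of 18 class I windows (RT1-T24-4), against 4.37% of 33469 rat promoter windows. The Y box core CCAAT lay in all 9 class II windows, in that of Cd74 and in 13 of 18 class I windows, against 37.5%. The interferon response element, GAAA repeated after a gap of 2 bases, lay in the windows of B2m, Tap1, Tap2 and Tapbp, 4 of 5 light chain and loading windows, and in 3 of 18 class I windows (RT1-N3, RT1-S2 and RT1-S3) but in 0 of 9 class II windows, against 3.92%. The X2 core TGACG lay in 5 of 18 class I windows, in 1 of 9 class II windows (RT1-Ba) and in those of B2m and Calr, against 21.2%. A match describes these letters, not a bound site.

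The stretches that hold the matches are shown for the genes the results turn on, with the matched letters of these 4 motifs in capitals, where a match on the other strand reads as its reverse complement. Class II and invariant chain, X1 box then Y box (RT1-Da chr20:4515326-4515376, plus strand; RT1-Db1 chr20:4560207-4560281, minus strand; Cd74 chr18:56526983-56527027, plus strand):
RT1-Da: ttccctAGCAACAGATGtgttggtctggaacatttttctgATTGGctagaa
RT1-Db1: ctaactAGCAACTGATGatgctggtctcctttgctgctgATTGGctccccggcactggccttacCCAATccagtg
Cd74: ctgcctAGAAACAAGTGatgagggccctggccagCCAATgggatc
Class I light chain, loading genes and heavy chain, with the interferon response element first, and in B2m and RT1-N3 also the X2 core and Y box (B2m chr3:129549174-129549276, plus strand; Tap1 chr20:4668649-4668670, minus strand; Tapbp chr20:4967882-4967909, minus strand, where 2 matches overlap; RT1-N3 chr20:2666262-2666422, plus strand, where a Y box precedes it):
B2m: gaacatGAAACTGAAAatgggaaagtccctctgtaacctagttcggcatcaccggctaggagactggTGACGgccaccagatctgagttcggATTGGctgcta
Tap1: ggctgcTTTCGGTTTCttcttc
Tapbp: ttgaggGAAAATGAAAGTGAAAggaaac
RT1-N3: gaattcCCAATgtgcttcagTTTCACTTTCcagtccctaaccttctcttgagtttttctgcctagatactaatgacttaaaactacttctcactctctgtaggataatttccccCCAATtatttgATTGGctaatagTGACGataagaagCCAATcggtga

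**Figure D1:**
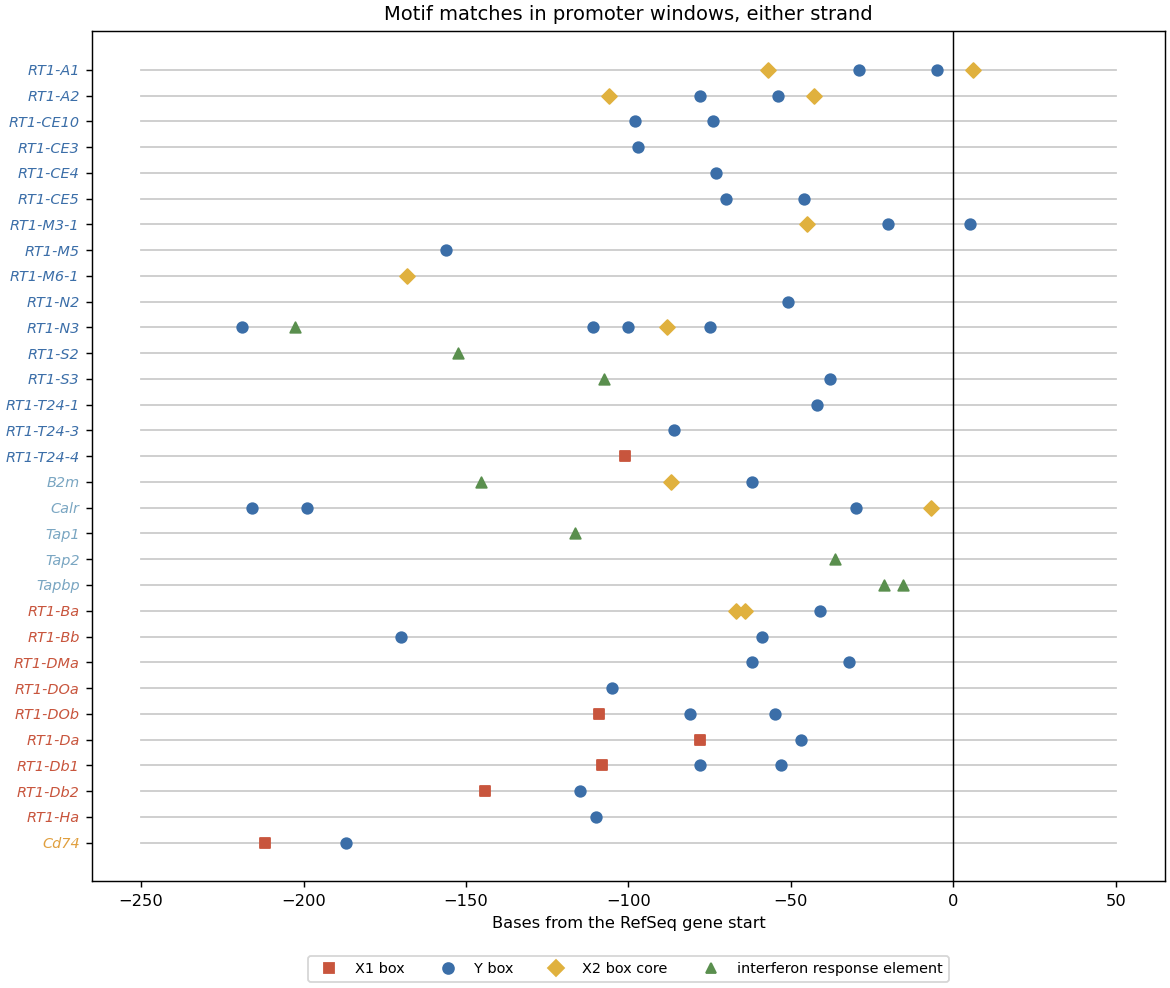
Motif matches (symbols) on either strand in the RefSeq promoter windows of members, by distance in bases from the gene start at 0, with gene labels coloured by class (blue class I, light blue light chain and loading, red class II, orange invariant chain). The X1 box is in 4 class II windows and that of Cd74, and the interferon response element in 4 of 5 light chain and loading windows.

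Before transplantation, B2m was the most abundant member, between 714 and 1209 FPKM in the 11 libraries. Calr lay between 412 and 739 FPKM and Pdia3 between 264 and 461 FPKM, both chaperones of glycoproteins in general. The class I rows summed to 154 to 297 FPKM, and a single row, RT1-S3, which the table describes as class Ib, made up 51.8% to 72.8% of it. The class II rows summed to 14.8 to 80.3 FPKM, with RT1-Da, the alpha chain of RT1-D, at 41.9% to 51.2% of the sum. Cd74 lay between 28.6 and 162 FPKM. The transactivators were low, Ciita between 0.217 and 1.29 FPKM and Nlrc5 between 1.11 and 2.09 FPKM.

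After transplantation, 8 of the 14 class I rows tested rose and 0 fell (limma, adjusted p under 0.05), in a comparison in which 23.4% of all 11924 genes tested rose and 26.6% fell. The same shares apply to every count of rising and falling genes in this comparison below. The median log2 difference of the 14 rows was 0.45, against -0.03 over all genes tested. The rows that rose were RT1-A1, of class Ia, which shows peptides to CD8 T cells, RT1-CE5 and RT1-CE7, RT1-T24-1, RT1-T24-3 and RT1-T24-4, and the class Ib rows RT1-M3-1 and RT1-N3. The counts depended on the libraries: without post-transplant replicate 11, or without replicate 12, 4 rows passed, and the fit of these 2 groups alone also gave 4. RT1-CE5, RT1-CE7, RT1-M3-1 and RT1-N3 passed under every alternative run.

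RT1-N3 lay between 0.772 and 2.74 FPKM before transplantation, with a median of 1.09, and between 1.12 and 13.1 FPKM after it, with a median of 5.83. In 8 of 11 post-transplant libraries it was above every pre-transplant library, with replicates 11 and 12 highest and replicates 3, 5 and 10 inside the pre-transplant range. The log2 difference was 1.47 ± 0.25 (SE, limma adjusted p = 1.54e-05), and values under 3 FPKM rested on few reads, 25 in the lowest library.

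RT1-M3-1, the rat counterpart of the mouse gene H2-M3, which shows formylated peptides, lay between 1.18 and 2.80 FPKM before and between 2.40 and 17.4 FPKM after transplantation, with medians of 1.72 and 4.78. It was above every pre-transplant library in 9 of 11 post-transplant libraries, and the log2 difference was 1.18 ± 0.19 (SE, limma adjusted p = 1.15e-05). RT1-CE5 lay between 5.75 and 12.7 FPKM before and between 7.63 and 73.1 FPKM after transplantation, with medians of 7.90 and 15.7. Replicates 5 and 10 stayed inside the pre-transplant range, replicate 11 was highest, and the log2 difference was 1.17 ± 0.25 (SE, limma adjusted p = 0.000231).

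RT1-A1 rose less, from a mean of 10.4 ± 1.32 FPKM (SD, n = 11) to 14.8 ± 6.17 FPKM (SD, n = 11), a log2 difference of 0.39 ± 0.15 (SE, limma adjusted p = 0.0314). It was above the pre-transplant range in 6 post-transplant libraries and below it in 2, and its call was lost without pre-transplant replicate 10 or post-transplant replicate 2, 3, 11 or 12 (limma adjusted p = 0.0521 to 0.07). RT1-A2, the other class Ia row, overlaps RT1-A1 on the same strand and had a log2 difference of 0.26 ± 0.22 (SE, limma adjusted p = 0.343). RT1-CE7 had a log2 difference of 0.48 ± 0.16 (SE, limma adjusted p = 0.0157). RT1-CE4, which overlaps RT1-CE5 and RT1-CE7, had 0.42 ± 0.19 (SE, limma adjusted p = 0.0612) and passed without post-transplant replicate 5, 6 or 10.

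Of the 3 RT1-T24 rows, RT1-T24-3 and RT1-T24-4 fell into separate levels after transplantation. RT1-T24-4 lay between 20.8 and 24.4 FPKM in post-transplant replicates 6, 7, 8, 9, 11 and 12 and between 6.40 and 12.2 FPKM in replicates 2, 3, 4, 5 and 10, against 7.85 to 14.1 FPKM before transplantation. RT1-T24-3 had the same 6 libraries on top, at 13.6 to 19.6 FPKM, with 1.94 to 7.34 FPKM in the other 5. The log2 differences over the groups were 0.49 ± 0.18 for RT1-T24-4 and 0.75 ± 0.28 for RT1-T24-3 (SE, limma adjusted p = 0.0268 and 0.0275). RT1-T24-1 was highest in replicates 6 and 7, at 38.0 and 20.6 FPKM, with a log2 difference of 0.94 ± 0.37 (SE, limma adjusted p = 0.0361). The calls of all 3 were lost under several alternatives, which include leaving out replicate 6, 11 or 12. Without replicate 9 the calls of RT1-T24-3 and RT1-T24-4 were lost as well (limma adjusted p = 0.0507 and 0.0509).

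RT1-S3, the row with the most class I signal, did not pass. It lay between 80.0 and 214 FPKM before and between 21.8 and 391 FPKM after transplantation, with medians of 155 and 157. Replicates 7, 8, 9, 11 and 12 were above the pre-transplant range, at 252 to 391 FPKM, and replicate 10 was below it, at 21.8 FPKM. The log2 difference was 0.15 ± 0.30 (SE, limma adjusted p = 0.712). RT1-N2 (-0.05 ± 0.23), RT1-M2 (0.20 ± 0.22) and RT1-M6-2 (-0.18 ± 0.10) did not pass either. The summed reads of all class I rows, fitted in the same way, gave a log2 difference of 0.38, whose p-value is not given here. The summed FPKM lay between 75.7 and 530.2.

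**Figure D2:**
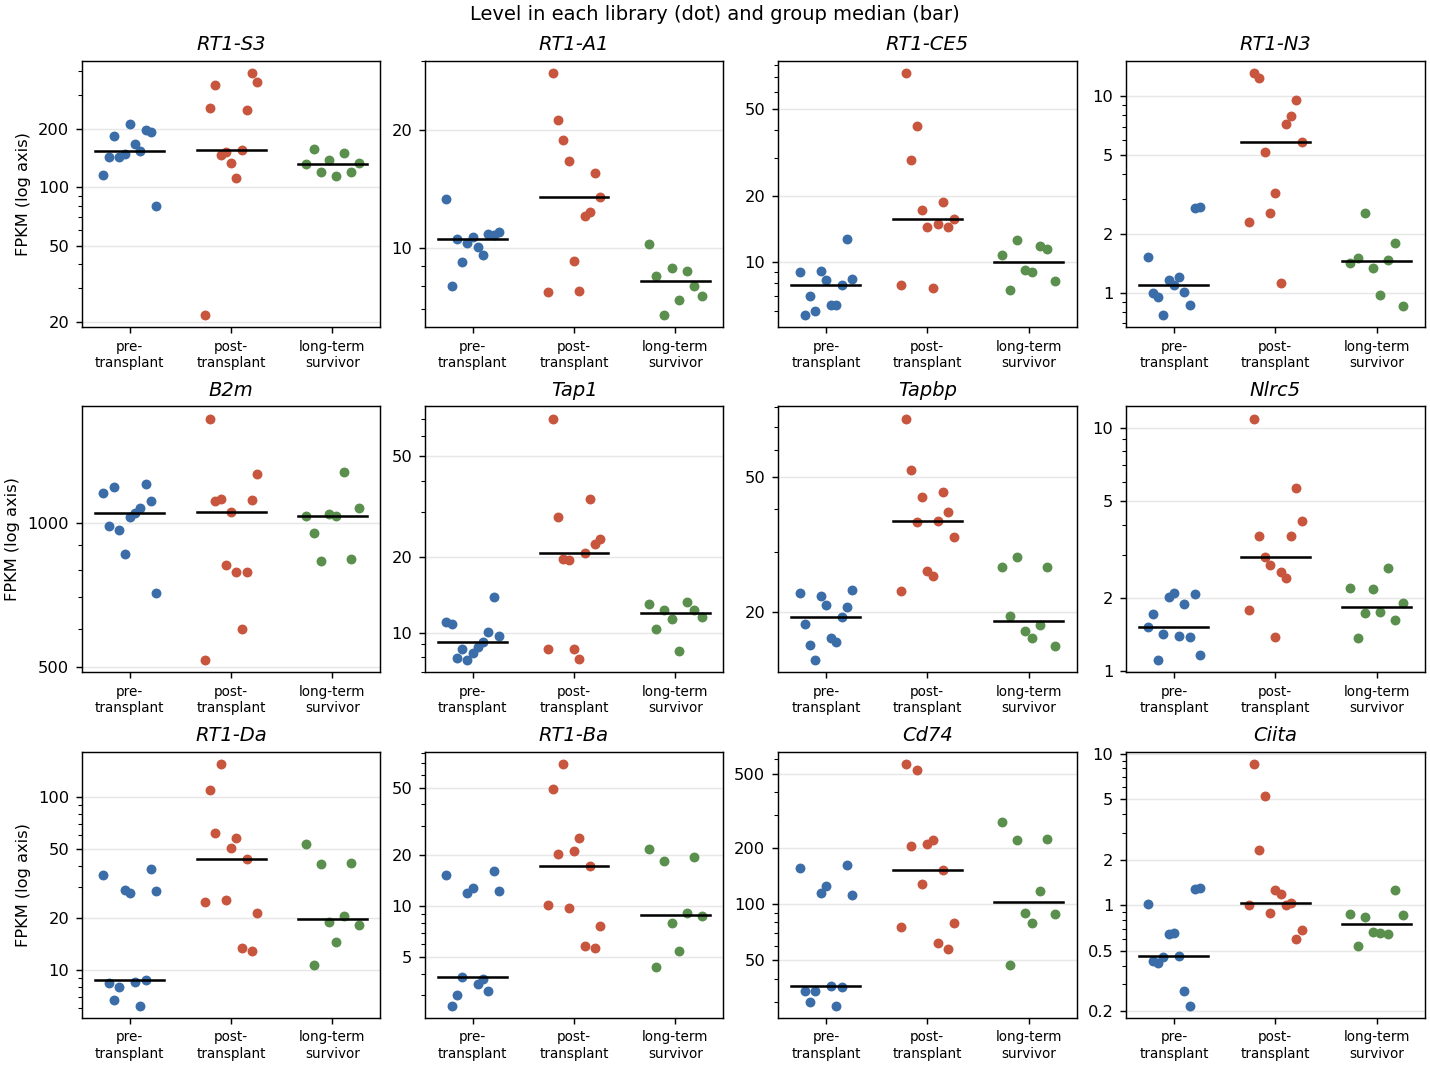
FPKM (log axis) of 12 members in each library (dots, in order of library name) of each group (11 pre-transplant, 11 post-transplant and 8 from long-term survivors), with the group median as a bar. B2m has medians of 1048, 1056 and 1036 FPKM, while Tapbp is above every pre-transplant library in 10 of 11 post-transplant libraries, and RT1-Da, RT1-Ba and Cd74 fall into separate levels before transplantation.

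The loading genes split. The transporter and tapasin rose, while B2m, the chaperones and the trimming peptidase did not pass. Thus 3 of 7 rose and 0 fell, where 23.4% of all genes tested rose and 26.6% fell. The median log2 difference of the 7 was -0.01. Tapbp lay between 14.4 and 23.1 FPKM before and between 23.03 and 74.0 FPKM after transplantation, with medians of 19.3 and 37.0. Replicate 10, the lowest, was just inside the pre-transplant range, and the log2 difference was 0.95 ± 0.15 (SE, limma adjusted p = 6.85e-06). Tap1 lay between 7.78 and 13.9 FPKM before and between 7.89 and 70.4 FPKM after transplantation, with medians of 9.16 and 20.7. Replicates 4, 5 and 10 lay inside the pre-transplant range, replicate 11 was highest, and the log2 difference was 0.98 ± 0.23 (SE, limma adjusted p = 0.000882). Tap2 had a log2 difference of 0.60 ± 0.19 (SE, limma adjusted p = 0.0085).

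B2m was 1032 ± 148 FPKM before and 986 ± 325 FPKM after transplantation (SD, n = 11 each), a log2 difference of -0.12 ± 0.15 (SE, limma adjusted p = 0.511). Replicates 9 and 11 were above the pre-transplant range, and replicates 6 and 10 below it, at 600.4 and 517 FPKM. B2m per summed class I FPKM lay between 3.48 and 5.65 before and between 1.92 and 6.83 after transplantation, lowest in replicates 6, 7, 8 and 12. Calr (-0.20 ± 0.13), Pdia3 (-0.08 ± 0.11) and Erap1 (-0.01 ± 0.08) had adjusted p-values of 0.216, 0.57 and 0.9 (limma). Under quantile normalization Pdia3 turned to a rise of 0.32 (limma adjusted p = 0.00707), and B2m, Calr and Erap1 turned to differences above 0 that did not pass.

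Among other genes of peptide supply, 5 of 8 tested rose and 0 fell, with a median log2 difference of 0.39. Psmb10, a catalytic subunit of the immunoproteasome, rose from a mean of 24.5 to 58.0 FPKM (log2 difference 1.16 ± 0.16, SE, limma adjusted p = 1.37e-06), and Psmb9, encoded beside Tap1 and another such subunit, from 27.3 to 63.2 FPKM (1.00 ± 0.24, limma adjusted p = 0.00115). Psmb8 rose by 0.44 ± 0.15 and Tapbpl, a second peptide editor, by 0.42 ± 0.11 (SE, limma adjusted p = 0.0179 and 0.00214). Canx (-0.04, limma adjusted p = 0.678) and Hspa5 (-0.28, limma adjusted p = 0.178), chaperones of the endoplasmic reticulum, did not pass.

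Of the 5 class II rows tested, 4 rose after transplantation and 0 fell, where 23.4% of all genes tested rose and 26.6% fell. The median log2 difference of the 5 rows was 1.01, and Cd74 rose as well. Pre-transplant values of these 4 rows and of Cd74 fell into separate levels by sample title, given below. RT1-Da lay between 6.22 and 38.4 FPKM before and between 12.8 and 155 FPKM after transplantation, with medians of 8.70 and 43.6. The groups overlapped, 6 of 11 post-transplant libraries were above the pre-transplant range, and replicates 2 and 11 were highest, at 155 and 109 FPKM. The log2 difference was 1.34 ± 0.41 (SE, limma adjusted p = 0.00762). The RT1-B chains had log2 differences of 1.20 ± 0.40 for RT1-Ba and 1.01 ± 0.36 for RT1-Bb (SE, limma adjusted p = 0.0131 and 0.021). RT1-Db1, the beta chain of RT1-D, had 0.78 ± 0.32 (SE, limma adjusted p = 0.0432), a call that was lost under 17 of the 40 alternatives that could give it. In bulk liver, more cells of a type and more RNA per cell cannot be told apart.

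Cd74, which blocks the groove of class II until it reaches the endosome, lay between 28.6 and 162 FPKM before and between 57.6 and 565 FPKM after transplantation, with medians of 36.6 and 153. Replicates 2 and 11 were highest, at 527 and 565 FPKM, replicates 6 and 8 lowest, and 5 of 11 were above the pre-transplant range. The log2 difference was 1.30 ± 0.42 (SE, limma adjusted p = 0.0119). Cd74 followed the class II chains closely: its FPKM per summed class II FPKM lay between 1.70 and 2.73 in all 30 libraries.

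RT1-DMb, the beta chain of the peptide exchanger DM, did not pass. It had 0 reads in pre-transplant replicate 10, which allows up to 0.0871 FPKM at 3 reads, and reached 8.26 FPKM in pre-transplant u1 and 20.4 FPKM in post-transplant replicate 2. Long-term survivor replicates 1 and 6 had 5.57 and 6.79 FPKM and the other 6 between 0.0246 and 0.921 FPKM. The log2 difference after transplantation was 0.38 ± 0.47 (SE, limma adjusted p = 0.525). Its partner RT1-DMa stayed at or below 1.44 FPKM and was not tested.

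Of other genes of class II processing, 6 of 7 tested rose and 0 fell, with a median log2 difference of 0.68. Lgmn, an asparaginyl endopeptidase of the endosome, rose from a mean of 30.2 to 114 FPKM (log2 difference 1.87 ± 0.15, SE, limma adjusted p = 6.3e-10) and Ctss, the cathepsin that trims the invariant chain, from 34.7 to 101.7 FPKM (1.53 ± 0.19, limma adjusted p = 1.74e-07). Ifi30, a thiol reductase, rose by 0.90 ± 0.13 and Ctsb by 0.65 ± 0.11 (SE, limma adjusted p = 2.48e-06 and 1.41e-05). Ctsh did not pass (-0.11, limma adjusted p = 0.47).

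Markers of the cells that make class II moved with these groups, and their part in the results was not tested. The summed FPKM of 9 Kupffer cell markers was 203 to 719 before and 577 to 2038 after transplantation (8 of 9 rose), and that of 6 monocyte and macrophage markers was 70.8 to 218 and 310.2 to 2624 (6 of 6 rose). The 10 dendritic cell markers summed to 4.14 to 10.7 and 8.52 to 33.9 FPKM (3 of 4 tested rose), and 6 B and plasma cell markers to 2.09 to 9.69 and 3.98 to 29.4 FPKM (1 of 1 tested rose). The 11 T and NK cell markers summed to 13.5 to 29.9 and 25.8 to 98.6 FPKM (3 of 5 tested rose), 5 neutrophil markers to 2.08 to 8.55 and 25.5 to 661 FPKM (5 of 5 rose), and 6 sinusoidal endothelial markers to 49.1 to 103.4 and 59.8 to 116 FPKM (2 rose, 1 fell). The 8 hepatocyte markers summed to 40661 to 89739 and 14262 to 60222 FPKM (5 of 8 fell), and 11 interferon-stimulated genes to 49.0 to 117 and 21.96 to 656 FPKM (8 of 11 rose). No defining marker was at 0 in all libraries of either group.

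Both transactivators rose after transplantation. Ciita lay between 0.602 and 8.55 FPKM after transplantation, with a median of 1.03 against 0.462 before it. Its pre-transplant values fell into separate levels by sample title, given below. Only replicates 2, 11 and 12 of the post-transplant libraries, at 5.28, 8.55 and 2.31 FPKM, were above the pre-transplant range, and the log2 difference was 0.70 ± 0.23 (SE, limma adjusted p = 0.0106). Nlrc5 lay between 1.38 and 10.9 FPKM, with a median of 2.94 against 1.51, and 9 of 11 post-transplant libraries were above the pre-transplant range. Its log2 difference was 0.74 ± 0.17 (SE, limma adjusted p = 0.000684). Replicate 11 was highest for both, and also for RT1-A1, RT1-A2, RT1-CE4, RT1-CE5, RT1-CE7, RT1-M3-1, RT1-N3, Tap1, Tap2, Tapbp and B2m. That library had 1.94 FPKM of Ifng, which encodes interferon gamma, against at most 0.107 FPKM in the other post-transplant libraries. It also had 202 FPKM of the interferon-inducible Gbp2 (3.68 to 25.1 in the others) and 27.9 FPKM of the CD8 T cell coreceptor Cd8a (0.902 to 8.91 in the others). The same library had the highest summed monocyte and macrophage markers (2624 FPKM) and the lowest summed hepatocyte markers (14262 FPKM). The library size behind its FPKM values was 1.41 times its reads in genes, the highest of all libraries. The part of each of these in its values was not tested.

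Of the MHC transcription factors and the interferon gamma pathway, 7 of 14 tested rose and 0 fell after transplantation, with a median log2 difference of 0.35. The receptor chain Ifngr1 rose from a mean of 20.998 to 44.6 FPKM (log2 difference 1.01 ± 0.12, SE, limma adjusted p = 1.01e-07) and the kinase Jak2 from 3.74 to 9.55 FPKM (1.09 ± 0.13, limma adjusted p = 1.44e-07). Irf8, a factor of myeloid cells, rose by 1.23 ± 0.17 and Ifngr2 by 0.97 ± 0.18 (SE, limma adjusted p = 1.25e-06 and 4.27e-05). Of the factors that sit on the promoter boxes, Rfx5 rose by 0.47 (limma adjusted p = 0.00793), while Nfya, Nfyb, Nfyc, Rfxank and Creb1, with log2 differences from -0.25 to 0.24, did not pass.

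**Figure D3:**
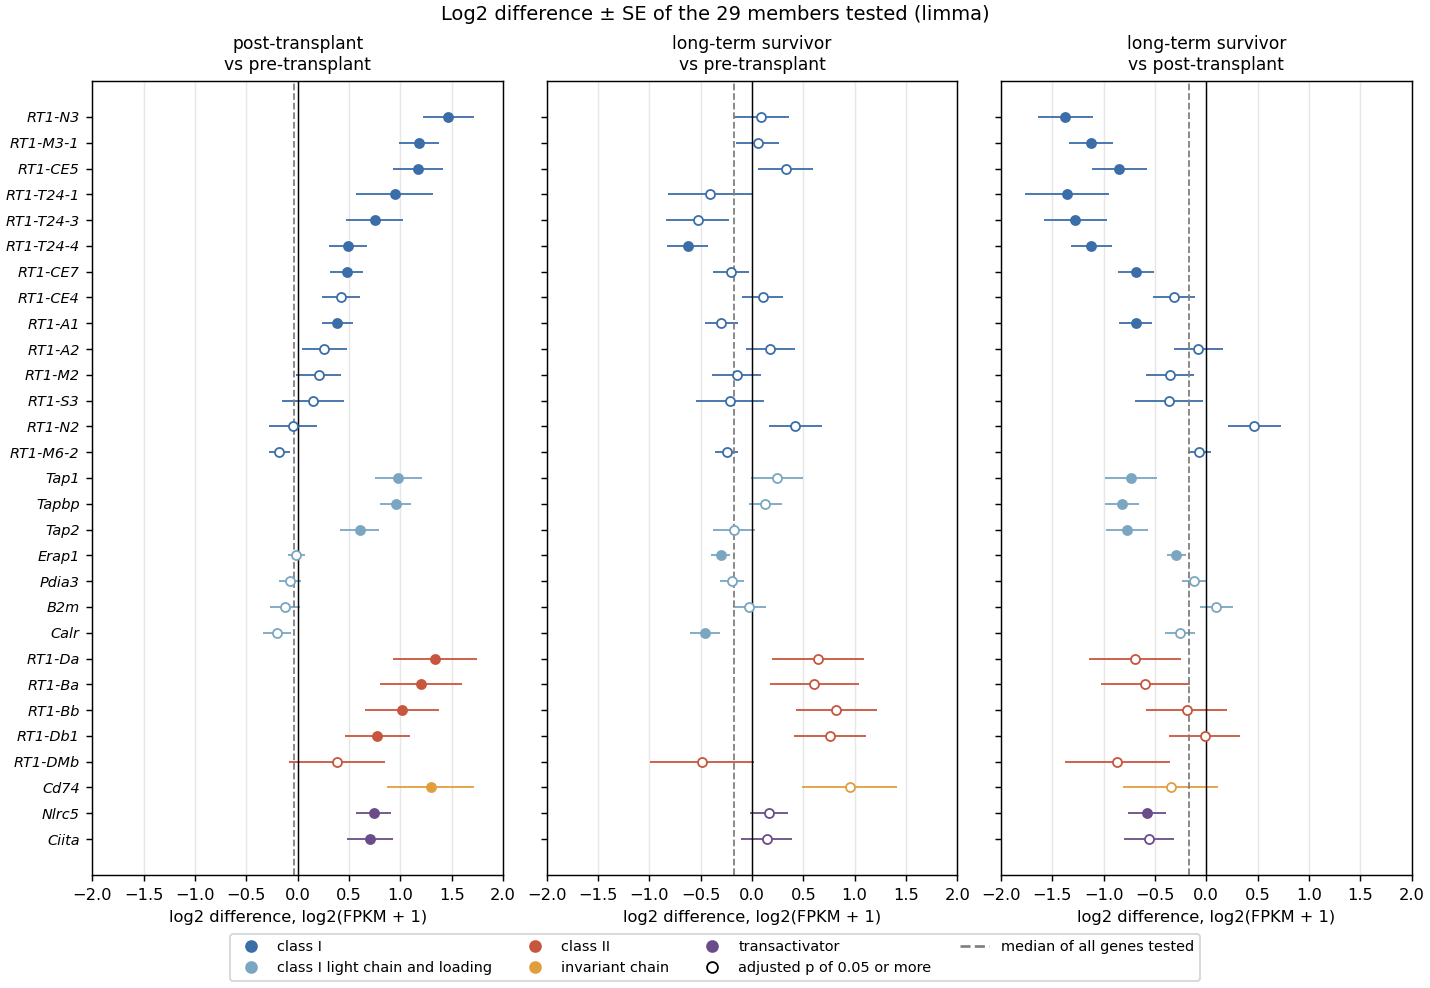
Log2 difference ± SE (limma, on log2(FPKM + 1)) of the 29 members tested in the 3 comparisons, coloured by class, filled where the adjusted p was under 0.05, with the median of all genes tested as a dashed line. After transplantation 18 members rose and 0 fell, where 23.4% of all genes tested rose and 26.6% fell. In long-term survivors against post-transplant livers 13 were lower and 0 higher, where 36.9% of all genes tested were lower and 10.5% higher.

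Pre-transplant levels were also compared by sample title. Titles run in blocks of consecutive numbers, and the labels do not say what the blocks stand for. Cd74 lay between 115 and 157 FPKM in titles M2 to M4 and at 162 and 112 FPKM in the columns headed M16 (u1, then u2), but between 28.6 and 36.6 FPKM in M8 to M10 and between 29.9 and 34.2 FPKM in M21 to M23. RT1-Da followed, with 27.7 to 35.4, 38.4 and 28.7, 6.22 to 8.70 and 6.74 to 8.45 FPKM in the same order. RT1-Ba, RT1-Bb and RT1-Db1 had the same blocks on top with no overlap, and RT1-DMb did not. Of the class I rows, RT1-CE5 had them on top as well, at 8.33 to 9.15, 12.7 and 8.36, 6.35 to 7.90 and 5.75 to 7.03 FPKM. So did the loading gene Tapbp, at 20.9 to 22.7, 23.1 and 20.7, 16.3 to 19.3 and 14.4 to 18.4 FPKM. The blocks overlapped for RT1-S3, which lay between 116 and 214, at 195 and 80.0, between 155 and 200 and between 144 and 186 FPKM. They overlapped too for Tap1, which lay between 7.78 and 10.97, at 13.9 and 9.73, between 8.81 and 10.04 and between 7.96 and 10.9 FPKM. In the same blocks the summed monocyte and macrophage markers were 126 to 193, 156 and 218, 76.5 to 88.3 and 70.8 to 84.9 FPKM, and the Kupffer cell markers 366 to 719, 537 and 203, 340.2 to 398 and 330 to 402 FPKM; their part was not tested.

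This was seen after the values were known. Within each pair of neighbouring title blocks, of 2 or 3 libraries each, the differences are given as values with no test. For Cd74 the log2 difference was 0.98 between M2 to M4 and M6 to M7, 2.06 between M8 to M10 and M11 to M13, 2.63 between M21 to M23 and M24 to M26, and -0.59 between the columns headed M16 and M18 to M20. RT1-Da gave 1.018, 2.01, 2.69 and -0.51, and Ciita 0.96, 0.71, 1.47 and -0.37. Tapbp gave 0.84, 0.72, 1.42 and 0.80, and RT1-N3 1.06, 1.05, 2.16 and 1.21. RT1-CE5, RT1-CE7, RT1-M3-1, RT1-N3, RT1-T24-1, Tap1, Tap2, Tapbp and Nlrc5 were above 0 in 4 of 4 pairs. Cd74, Ciita, all 5 class II rows and 5 class I rows (RT1-A1, RT1-CE4, RT1-M2, RT1-T24-3 and RT1-T24-4) were above 0 in 3, and RT1-A2 in 2. RT1-S3, RT1-N2, RT1-M6-2, B2m, Erap1 and Pdia3 were above 0 in 1 pair and Calr in 0. The difference between pairs was not tested.

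**Figure D4:**
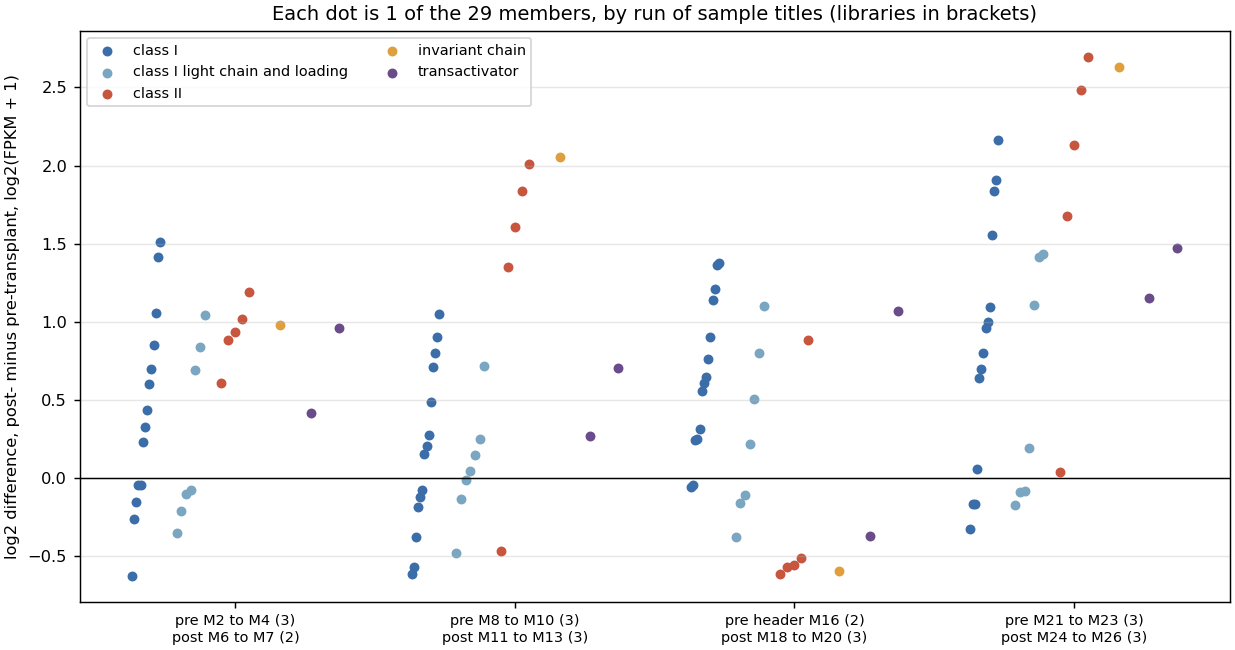
Log2 difference (post- minus pre-transplant, mean log2(FPKM + 1)) of each of the 29 members within 4 pairs of title blocks, with the number of libraries in brackets, coloured by class. Cd74 has 0.98, 2.06, -0.59 and 2.63 from left to right, while class I medians are 0.38, 0.18, 0.63 and 0.88.

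The ratio of class II to class I varied among post-transplant libraries. Replicate 8 had 530.2 FPKM of summed class I and 27.8 FPKM of summed class II, replicate 2 had 307 and 309 FPKM, and replicate 10 had 75.7 and 44.6 FPKM. Class II per class I was thus 0.0523 in replicate 8, 1.01 in replicate 2 and 0.59 in replicate 10, against 0.0598 to 0.363 before transplantation and 0.0958 to 0.528 in long-term survivors. Replicate 8 also had the highest summed interferon-stimulated genes (656 FPKM) and replicate 10 the lowest (21.96 FPKM), and replicate 2 had 2038 FPKM of Kupffer cell markers, the highest of all libraries; their part was not tested.

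**Figure D5:**
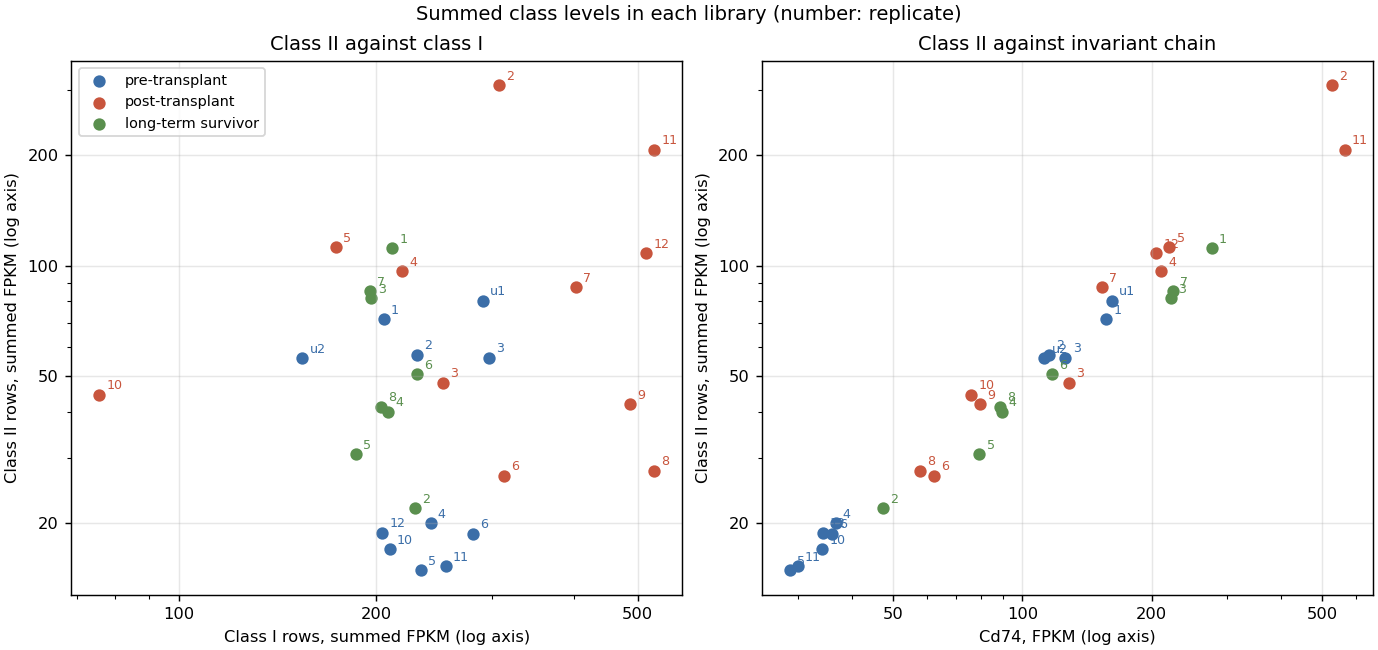
Left, summed FPKM of the 10 class II rows against that of the 21 class I rows in each library (log axes, colour for group, number for replicate). Right, class II against Cd74. Class I spans 154 to 297 FPKM before transplantation where class II falls into separate levels, and Cd74 per class II stays between 1.70 and 2.73.

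In long-term survivors against pre-transplant livers, 3 of 29 members passed, all lower, where 30.8% of all genes tested were lower and 3.85% higher. RT1-T24-4 was the only tested member whose groups did not overlap, with 5.05 to 7.44 against 7.85 to 14.1 FPKM, where 3.09% of all genes tested lay wholly below. Its log2 difference was -0.63 ± 0.20 (SE, limma adjusted p = 0.0165). Calr fell by 0.46 ± 0.14 and Erap1 by 0.30 ± 0.09 on the log2 scale (SE, limma adjusted p = 0.0151 and 0.0101). With the near-equal long-term survivor pairs averaged, the call of Calr was lost (-0.42, limma adjusted p = 0.0581). With median-of-ratios scaling, which sets the median of all genes tested at -0.01 and gives 985 genes higher and 1151 lower in place of 459 and 3675, all 3 calls were lost (log2 differences -0.45, -0.25 and -0.11). The factors of this scaling ran from 1.04 to 1.05 in pre- and post-transplant libraries and from 0.897 to 0.911 in long-term survivors. Why they differ by group was not tested. A shift of the whole group and the state of long-term survivors cannot be told apart here.

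No class II row passed against pre-transplant livers, in either direction. Cd74 lay between 47.3 and 276 FPKM in long-term survivors, with a median of 103.3, against 36.6 before transplantation, and the log2 difference was 0.95 ± 0.46 (SE, limma adjusted p = 0.11). Replicates 1, 3 and 7 were above the pre-transplant range, at 276, 222 and 224 FPKM, and the other 5 lay between 47.3 and 117 FPKM. RT1-Bb (0.82 ± 0.40), RT1-Db1 (0.76 ± 0.35), RT1-Da (0.65 ± 0.45) and RT1-Ba (0.61 ± 0.43) had adjusted p-values of 0.107, 0.0899, 0.272 and 0.29 (limma). The class II median was 0.65 against -0.17 over all genes tested, and 0.84 with median-of-ratios scaling. RT1-Db1 passed without long-term survivor replicate 2 (0.91, limma adjusted p = 0.0455) and in the fit of these 2 groups alone (limma adjusted p = 0.0448). The fit of the 2 groups alone also called 6 class I rows, of which RT1-CE5 and RT1-N2 were higher and RT1-A1, RT1-CE7, RT1-T24-3 and RT1-T24-4 lower. Over all 11924 genes tested it called 653 higher and 4164 lower, in place of 459 and 3675.

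Beside the 3 lower members, the other 13 class I rows and 5 loading genes did not pass against pre-transplant livers, which does not show that they were equal. Their log2 differences ran from -0.53 for RT1-T24-3, with a mean of 3.01 FPKM against 4.87, to 0.42 for RT1-N2, with 16.3 against 12.2 FPKM (limma adjusted p = 0.185 and 0.204). RT1-N3 had a median of 1.44 FPKM against 1.09, Tap1 11.9 against 9.16, Tapbp 18.9 against 19.3 and B2m 1036 against 1048. The median log2 difference was -0.18 for the 14 class I rows and -0.17 for the 7 loading genes, against -0.17 over all genes tested. The summed class I FPKM spanned only 186 to 231 over the 8 libraries. In other lists 0 of 8 genes of peptide supply passed, 1 of 7 of class II processing rose (Ctsb, 0.30 ± 0.12, SE, limma adjusted p = 0.0484) and 3 of 14 transcription factor and interferon gamma genes fell (Creb1, Nfyc and Rfxank). The Kupffer cell markers summed to 371 to 567, the monocyte and macrophage markers to 114 to 209, the B and plasma cell markers to 3.61 to 75.4 and the interferon-stimulated genes to 54.3 to 68.7 FPKM, and their part was not tested. Of the defining markers, Cd209 and Gzmb were at 0 in all long-term survivor libraries.

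Against post-transplant livers, with which the comparison above shares the long-term survivor libraries, 13 of 29 members were lower and 0 higher in long-term survivors, where 36.9% of all genes tested were lower and 10.5% higher. They were 8 of 14 class I rows, 4 of 7 loading genes (Tap1, Tap2, Tapbp and Erap1) and Nlrc5, and 0 of 5 class II rows. The calls differed more than the medians, which were -0.68 for class I and -0.59 for class II, against -0.16 over all genes tested. Of the 5 class II rows, 0 had a log2 difference above 0, and their SE was wide. RT1-DMb had -0.87 ± 0.51, RT1-Da -0.69 ± 0.45, RT1-Ba -0.59 ± 0.43 and RT1-Bb -0.19 ± 0.40. RT1-N3 had a log2 difference of -1.37 ± 0.27 and RT1-T24-4 of -1.12 ± 0.20 (SE, limma adjusted p = 0.000149 and 5.58e-05). Tapbp had -0.82 ± 0.16 (SE, limma adjusted p = 0.000185). Cd74, at -0.34 ± 0.46 (SE, limma adjusted p = 0.559), and RT1-Db1, at -0.02 ± 0.35 (SE, limma adjusted p = 0.972), did not pass, which does not show that they stayed equal. Ciita, at -0.56 ± 0.25 (SE, limma adjusted p = 0.061), passed as lower without post-transplant replicate 9 (-0.62, limma adjusted p = 0.0383), and also without replicate 3 or 8. RT1-S3 passed as lower without replicate 10 (-0.65, limma adjusted p = 0.0147), and Calr without replicate 12 (-0.33, limma adjusted p = 0.0406). Median-of-ratios scaling, with 2573 genes higher and 2497 lower in place of 1255 and 4401, left 10 of the 13 lower, without Tap1, Erap1 and Nlrc5, and RT1-N2 passed as higher (0.66, limma adjusted p = 0.0354). Of other lists, 5 of 8 genes of peptide supply, 6 of 7 of class II processing and 9 of 14 transcription factor and interferon gamma genes were lower and 0 higher. Of 5 MHC class I-like genes outside RT1, 2 were higher and 1 lower, with a median log2 difference of 0.17.

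Likeness to Cd74 and to B2m was described by Pearson's r on log2(FPKM + 1), after taking off each group's mean, over the 30 libraries, which share their scaling. RT1-Ba, RT1-Bb, RT1-Da and RT1-Db1 had r of 0.97 to 0.99 with Cd74, Ciita 0.77 and RT1-DMb 0.30, while the class I rows ranged from -0.08 to 0.67. Outside the members, Matk (0.85), Irf8 (0.85), Ly49si1 (0.83), Abcc5 (0.79) and Dpp7 (0.79) were most like Cd74. For B2m these were Sdccag8 (0.78), Tmem140 (0.75), Trim34 (0.75), Ldhd (0.74) and Trim5 (0.73), and among members RT1-S3 (0.69) and RT1-N2 (0.64) came first.

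Ciita with Cd74, Nlrc5 with B2m, Nlrc5 with Tap1 and Cd74 with B2m were related before and after transplantation, within a cluster where libraries fell into separate ones. Of these 8 relations, 0 passed after adjustment. Nlrc5 with Tap1 had the highest r, 0.84, in the 8 post-transplant libraries apart from replicates 4, 5 and 10 (exact permutation p = 0.031, adjusted p = 0.0825; rho = 0.71, exact permutation p = 0.0576, adjusted p = 0.154). Ciita with Cd74 was related in the 9 post-transplant libraries apart from replicates 2 and 11 (r = 0.69, exact permutation p = 0.0171, adjusted p = 0.0682; rho = 0.78, exact permutation p = 0.0172, adjusted p = 0.0689). Nlrc5 with B2m in all 11 post-transplant libraries gave r = 0.70 (permutation p = 0.0168, adjusted p = 0.0682; rho = 0.74, permutation p = 0.0129, adjusted p = 0.0689). Without the 2 libraries farthest from the median of Nlrc5 or Ciita, r was 0.64, 0.65 and 0.45 for these 3 relations.

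The 12 members below the filter were 7 class I and 5 class II rows. RT1-CE3 reached 2.51 FPKM (74 reads) in its highest library, RT1-DOa 1.73 FPKM, RT1-DMa 1.44 FPKM, RT1-M6-1 1.13 FPKM and RT1-DOb 1.04 FPKM, and the other 7 stayed under 1 FPKM. RT1-Ha, a class II row, had at most 2 reads in a library and was at 0 in 26 of 30 libraries.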

How the data were processed

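The authors deposited FPKM values per gene and library in a single table, which does not name the unit, and how they were computed is not stated there. The unit was worked out from the values: multiplied by gene length and scaled per library, 100% of those up to 5000 reads came out as whole reads within 0.02 reads, which also gave each library's reads. The library size behind the deposited FPKM was 0.783 to 1.41 times the reads in genes, so the values carry a further scaling per library, of which the sources used here give no account; it was highest in post-transplant replicate 11. Per the submitters' processing notes, HISAT2 (2.0.5) was used and the builds Rnor_6.0 and mm10 are listed with no role. For the counting program, annotation, strand setting and treatment of reads that fit several genes, the answer is not given in the sources used here. Of 32 value columns, 30 were used: the header M5, a post-transplant title, stands on 2 columns, which were left out, and the header M16 stands on 2 others, used as pre-transplant. The titles M15 and M17 matched no header.

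Genes at 1 FPKM or more in at least 8 libraries (11924) were fitted on log2(FPKM + 1) with limma (3.58.1, R 4.3.3; empirical Bayes with trend and robust settings), all 3 groups in a single fit, with Benjamini-Hochberg adjustment over all genes tested and a threshold of 0.05. A fold change on this scale understates the change of low genes. Summaries, permutation tests (100000 resamples or exact, two-sided) and motif searches used Python 3.11.15, pandas 2.3.3 and SciPy 1.17.1, and the fit was tested on simulated data. Every tested member is named, and of other lists up to 4 genes by smallest adjusted p, with further ones named after their values were seen. Members and lists were chosen with earlier results of these data known. Intervals and the limit from 0 reads cover counting error only. The alternatives were other scalings, pseudocounts and filters, voom on the recovered reads, averaging near-equal libraries, leaving out libraries and, added after seeing the data, title block as a term.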

Additional observations from a re-analysis of the deposited data

Results flagged for a closer look

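Ciita in long-term survivor replicate 7 stood apart from the other 7 libraries of its group. It was at 1.27 FPKM (151 reads), where the next highest library had 0.869 FPKM and the lowest 0.535 FPKM. The gap to the next library was 0.544 of the group's range, above Dixon's critical value of 0.526 for 8 libraries. Among long-term survivor libraries, 1 of the 29 members checked was picked out in this way, and chance picks out about 1 in 20 groups. This does not show that no other library stood apart, and for the other groups no result of this rule is given. RT1-DMb was at 8.26 FPKM in pre-transplant u1, where the next highest pre-transplant library had 2.69 FPKM. Tap1 was at 70.4 FPKM in post-transplant replicate 11, where the next highest post-transplant library had 33.7 FPKM. Replicate 3, otherwise near-equal to replicate 7, had 0.84 FPKM.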

How the results depend on the processing

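The labels name no pairing of samples between groups, and replicate numbers run within each group, so no fit paired by replicate number was made. A fit with the title block as a term, chosen after seeing the data and pairing neighbouring blocks by an assumption the labels do not state, gave 18 calls after transplantation, as without it, 8 of them in class I and 4 in class II. RT1-CE4 passed there (0.44, limma adjusted p = 0.0491) and RT1-T24-1 did not (0.88, limma adjusted p = 0.0582). The edgeR test of the recovered reads was not run. After transplantation, 13 of 18 member calls held under every alternative that was run, the title block included (Cd74, Ciita, Nlrc5, RT1-Ba, RT1-Bb, RT1-CE5, RT1-CE7, RT1-Da, RT1-M3-1, RT1-N3, Tap1, Tap2 and Tapbp). The class I count of 8 was 4 in the fit of the 2 groups alone and 4 to 9 when a library was left out, lowest without post-transplant replicate 11 or 12. For long-term survivors against pre-transplant livers, the 3 calls became 0 with median-of-ratios and 0 with quantile normalization and 9 in the fit of the 2 groups alone. Class I there went from 1 to 0, 0 and 6, and class II from 0 to 1 in the last. That last fit called 653 of all 11924 genes tested higher and 4164 lower, in place of 459 and 3675. Leaving out a library gave 1 to 2 class I calls (2 without long-term survivor replicate 1 or 6) and 0 to 1 class II calls. Against post-transplant livers 10 of 13 calls held throughout, without Erap1, Nlrc5 and Tap1.

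Some differences changed sign under the alternatives. After transplantation, quantile normalization gave 0.30 for B2m, 0.15 for Calr, 0.32 for Pdia3 and 0.0399 for Erap1, and Erap1 was 0.0151 without the columns headed M16. Among these, Pdia3 passed (limma adjusted p = 0.00707) and the others did not. Against pre-transplant livers, B2m in long-term survivors was 0.18 with median-of-ratios scaling, 0.11 with quantile normalization and 0.0049 with the near-equal pairs averaged. Pdia3 was 0.0075 and 0.10 under the 2 scalings, and RT1-S3 0.12 with quantile normalization. Against post-transplant livers, B2m was -0.19 with quantile normalization. With median-of-ratios scaling Pdia3 was 0.0916, RT1-A2 0.11, RT1-Db1 0.15 and RT1-M6-2 0.0823. With quantile normalization RT1-A2 was 0.10, RT1-Db1 0.21 and RT1-M6-2 0.21, and RT1-Db1 was 0.0237 with a pseudocount of 0.1 and 0.0204 with voom. Leaving out a library moved Erap1 from -0.0702 to 0.0169 and RT1-N2 from -0.15 to 0.12 after transplantation, and B2m from -0.0771 to 0.0131 in long-term survivors against pre-transplant livers. It moved RT1-A2 from -0.17 to 0.0434 and RT1-Db1 from -0.17 to 0.15 against post-transplant livers. Without the columns headed M16, r before transplantation was -0.62 for Nlrc5 with B2m and -0.081 for Nlrc5 with Tap1, against 0.05 and 0.22 with them. The cause of these changes was not tested. Low depth limits RT1-M2, RT1-M3-1, RT1-M6-2, RT1-N3, RT1-T24-1, RT1-Db1, RT1-DMb and Ciita, which had under 50 reads in their lowest libraries.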

Other observations

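MHC class I-like genes outside RT1, which fold like class I heavy chains but serve other ends, moved mostly the other way. After transplantation 4 of 5 tested fell and 1 rose. Hfe, a regulator of hepcidin and iron uptake, fell from a mean of 20.1 to 10.8 FPKM (log2 difference -0.90 ± 0.14, SE, limma adjusted p = 4.53e-06), and Azgp1, a secreted zinc-binding glycoprotein made by hepatocytes, from 897 to 529 FPKM (-0.85 ± 0.18, limma adjusted p = 0.000207). Cd1d1, which shows lipids to NKT cells, fell by 0.31 and Fcgrt, the neonatal Fc receptor that pairs with B2m, by 0.33 on the log2 scale (limma adjusted p = 0.004 and 0.0495). Procr, the endothelial protein C receptor, rose from 1.01 to 3.68 FPKM (1.17 ± 0.14, SE, limma adjusted p = 2.02e-07). The hepatocyte markers fell in the same libraries (5 of 8), and their part was not tested. In long-term survivors against pre-transplant livers 0 of 5 passed by limma.

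Of the costimulation and coreceptor genes, 4 of 6 tested rose after transplantation and 0 fell. Cd4, the coreceptor for class II, which rat macrophages also carry, rose from a mean of 14.2 to 35.6 FPKM (log2 difference 1.18 ± 0.19, SE, limma adjusted p = 8.22e-06), and Cd8a, the coreceptor for class I, from 0.818 to 5.57 FPKM (1.31 ± 0.30, limma adjusted p = 0.000619). The costimulatory ligand Cd86 rose by 0.88 ± 0.12 and the receptor Cd40 by 1.03 ± 0.19 (SE, limma adjusted p = 9.99e-07 and 4.8e-05). Lag3, at -0.21, and Cd274, at 0.22, did not pass (limma adjusted p = 0.286 and 0.475). In long-term survivors 5 of 6 were lower than after transplantation, and 0 of 6 passed against pre-transplant livers by limma.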
